A study of Mus musculus with 80 samples.

Results

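The 37 genes of the mouse mitochondrial genome were followed in whole blood after irradiation. They were the table entries whose symbol starts with mt-, 37 of 50365 in all, and comprised 13 protein genes, 2 rRNA genes and 22 tRNA genes. All 37 symbols matched a gene of chromosome M in the GENCODE M21 annotation of the GRCm38 build. Total RNA had been sequenced from blood of female C57BL/6 mice in 80 libraries that form 14 groups. In the VarDR exposure the dose rate fell with time, to mimic caesium-137 taken into the body. The summed dose in this mode was 2 Gy for the group sampled on day 2 (n = 5) and 2.8 Gy for that of day 3 (n = 6). By day 5 it had reached 4.1 Gy (n = 6), and the mice kept until day 30 (n = 6) had taken up 9.7 Gy. The acute exposure, at 0.73 Gy per minute, gave 2 Gy to the mice sampled on day 2 (n = 6), 2.8 Gy to those of day 3 (n = 3) and 4.1 Gy to those of day 5 (n = 6). Each irradiated group was compared with the unirradiated sham group of its own exposure type and day (n = 6 in each of the 7). The labels do not state that every library is a separate animal, so p-values measure the spread between these libraries. Ages are not given in the sources used here.

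Mitochondria carry their own small circular genome, which encodes core subunits of the respiratory chain and the rRNAs and tRNAs needed to make them. Each strand is transcribed as a long precursor that is cut into mature RNAs, mostly at the tRNAs that lie between the other genes. The heavy-strand transcript gives both rRNAs and nearly all the protein mRNAs, whereas the light-strand transcript gives mt-Nd6 and a minority of the tRNAs. In blood, white cells, platelets and immature red cells hold mitochondria, and mature red cells of mammals have lost them.

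The nuclear genome holds copies of parts of this genome, and the deposited table lists them as genes of their own. A search of the GENCODE M21 transcripts gave 11 copies, which matched 9 of the 13 protein genes over at least 100 bases at 95% identity or more. A block of 7 of them spans 4663 bases of the minus strand of chromosome 1 (chr1:24611535-24616197, GRCm38) and corresponds to bases 6390 to 11042 of chromosome M. Gm28661 matched mt-Co2 at every one of 681 aligned bases, Gm28437 matched mt-Co3 over 783, Gm10925 matched mt-Atp6 over 678 and Gm10222 matched mt-Nd4l over 294. Gm28438 differed from mt-Nd3 at 1 of 345 bases, T3C, and Gm29216 differed from mt-Co1 at 1 of 483 bases, A1066T, with the mitochondrial base first and positions counted from 1 at the first base of the mitochondrial gene. The stretches that hold these differences are printed first, on the sense strand, with the differing base in capitals. The opening 60 bases of mt-Co2 and of its copy follow, to show that a read from this stretch cannot be told apart by its letters. All were read from the GENCODE M21 transcripts.
mt-Nd3: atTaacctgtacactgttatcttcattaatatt
Gm28438: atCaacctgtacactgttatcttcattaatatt
mt-Co1: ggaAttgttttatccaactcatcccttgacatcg
Gm29216: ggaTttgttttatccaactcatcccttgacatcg
mt-Co2: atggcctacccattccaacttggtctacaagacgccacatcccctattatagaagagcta
Gm28661: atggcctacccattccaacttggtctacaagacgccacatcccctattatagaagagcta

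The split of signal between a gene and its copy varied widely from library to library. Values are the deposited normalized read counts rescaled so that the typical gene had the same level in every library, and are called rescaled values. The mt-Co2 entry ran from 14.6 to 7353 over the 80 libraries, and the sum of mt-Co2 and its copies from 8298 to 36685. Within groups, the standard deviation of log2 values was 2.26 for the mt-Co2 entry and 0.341 for the sum. The mt-Co2 entry held 0.117 to 34.3% of that sum (median 9.67%). The same held to a smaller degree for mt-Atp6 (1.25 alone, 0.406 with its copy), mt-Nd3 (2.46 and 0.725), mt-Nd4l (1.73 and 0.871) and mt-Co3 (0.770 and 0.366). It made little difference for mt-Co1 (0.395 and 0.383), which held 72.5 to 87.7% of its sum, and none for mt-Nd4, whose copy Gm28439 was at 0 in all 80 libraries. Which of these reads come from nuclear transcripts was not tested. Sums with the copies are therefore given beside the single entries for the genes concerned, and this choice was made after seeing the data.

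**Figure D1:**
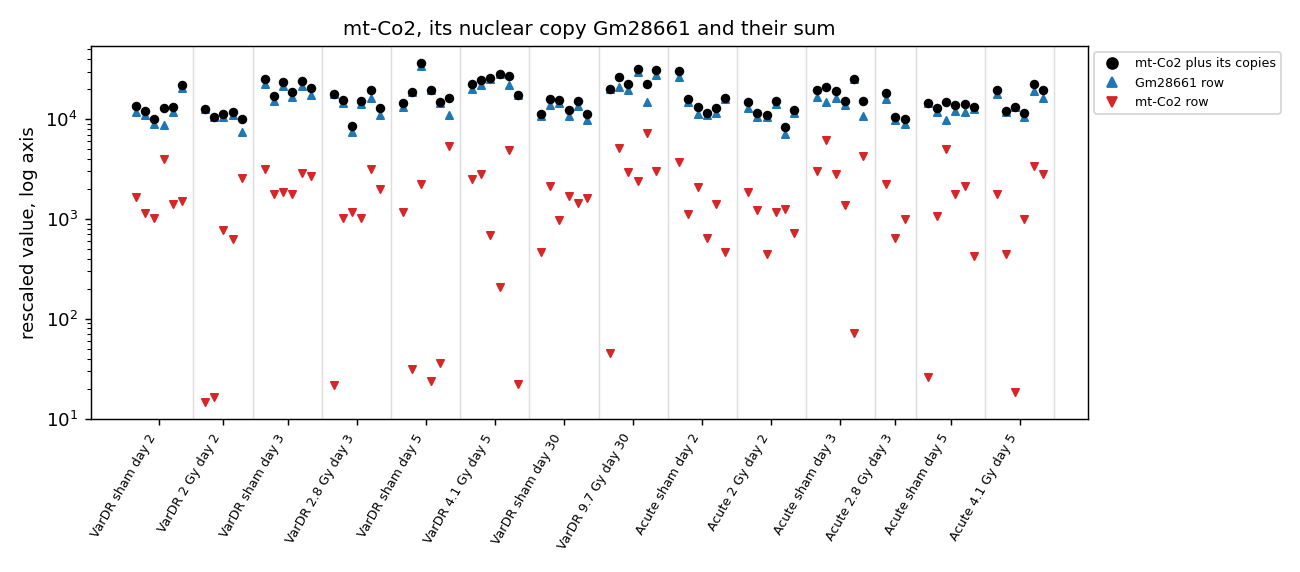
Rescaled value (log axis) of the mt-Co2 entry, its nuclear copy Gm28661 and the sum of mt-Co2 with its copies in each of the 80 libraries, ordered by group. The sum stays between 8298 and 36685, while the mt-Co2 entry falls below 100 in some libraries of irradiated and of sham groups.

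Per kilobase of gene length, mt-Rnr2 had the highest level. The median over libraries was 344813 per kilobase for mt-Rnr2, the large ribosomal RNA, and 39727 for mt-Rnr1, the small one. Among the proteins, the cytochrome c oxidase subunits stood highest once copies were added, and mt-Co1 then exceeded mt-Rnr1, at 42104 per kilobase for mt-Co1, 34561 for mt-Co3 and 22478 for mt-Co2. mt-Atp6 followed at 12405 with its copy, then mt-Nd3 at 5136 with its copy, mt-Atp8 at 4271, mt-Nd1 at 4103 and mt-Cytb at 3183. mt-Nd4 (1785), mt-Nd2 (718), mt-Nd5 (525) and mt-Nd4l (294 with its copy) were lower. mt-Nd6 was the lowest protein gene at 57.6 per kilobase and the only one on the light strand. mt-Tm, the methionine tRNA, had 31.8 per kilobase, and the other 21 tRNAs had a median of 0. The ranges of neighbours in this order overlapped between libraries. Libraries had been depleted of rRNA, and whether the depletion probes cover the mitochondrial rRNAs is not given in the sources used here. Mature tRNAs, here 59 to 75 bases long, are shorter than the fragments such libraries usually keep.

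Facts of the libraries that bear on these genes are the following. Column totals were 15.9 to 77.7 M normalized counts (median 34.5 M). The 7SL RNAs, nuclear-encoded RNAs of the signal recognition particle, took 18.4% ± 7.69 to 56.9% ± 2.56 (mean ± SD) of the column total by group. The lowest share was after acute irradiation on day 5 and the highest in VarDR mice on day 30. Markers of liver, such as albumin and the apolipoproteins, took over 0.5% of the total in 20 of 80 libraries. They belonged to VarDR days 3 (2 irradiated, 2 sham) and 5 (4 irradiated, 3 sham), and to acute days 2 (3 irradiated, 1 sham), 3 (2 irradiated) and 5 (3 irradiated).

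The mitochondrial share of the column total was higher in the acute irradiated groups, mainly through the rRNAs. On day 2 the 2 rRNAs took 3.62% ± 0.996 (SD, n = 6) of the acute irradiated libraries, with lowest, median and highest values of 2.42%, 3.48% and 5.23%. The shams held 1.47% ± 0.270 (SD, n = 6), with 1.15%, 1.39% and 1.90%, and the groups did not overlap. On day 3 the irradiated libraries held 2.21%, 2.44% and 2.72% against 1.22%, 1.60% and 2.05% in the shams, again without overlap. On day 5 they held 1.57%, 3.38% and 21.2% against 1.16%, 1.72% and 2.09%, where the groups overlapped and replicate 5 alone reached 21.2%.
In VarDR mice the rRNA share was 1.55% ± 0.159 against 1.31% ± 0.230 on day 2, 1.54% ± 0.417 against 1.33% ± 0.284 on day 3, 2.33% ± 0.432 against 1.71% ± 0.370 on day 5 and 1.16% ± 0.156 against 1.33% ± 0.192 on day 30. All of these groups overlapped with their shams.

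The 13 protein genes together took less than 1% of every library. Their share was 0.345% ± 0.0896 against 0.270% ± 0.0703 in the acute day 2 comparison, 0.405% ± 0.146 against 0.235% ± 0.0663 on day 3 and 0.414% ± 0.171 against 0.209% ± 0.0184 on day 5. The VarDR values were 0.211% ± 0.0286 against 0.241% ± 0.0436 on day 2, 0.293% ± 0.132 against 0.244% ± 0.0811 on day 3 and 0.415% ± 0.0896 against 0.349% ± 0.256 on day 5. In the VarDR day 5 shams replicate 3 held 0.865%, beside a liver signal of 4.05%, and the others 0.186 to 0.296%. The irradiated libraries of that day held 0.349 to 0.590%, so only that sham lay above them. On day 30 the irradiated share was 0.157% ± 0.0263 and the sham share 0.219% ± 0.0507. The tRNAs took at most 0.000302% of any library.
7SL RNA took less of the total in the acute irradiated groups than in their shams and more on VarDR day 30, so shares of the total without it differ. Without 7SL the acute day 3 rRNA share was 3.10% ± 0.266 against 3.10% ± 0.366, and the day 30 rRNA share 2.70% ± 0.394 against 2.31% ± 0.384. The acute day 2 difference was still present, at 4.91% ± 1.51 against 2.43% ± 0.197, and its groups did not overlap.

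**Figure D2:**
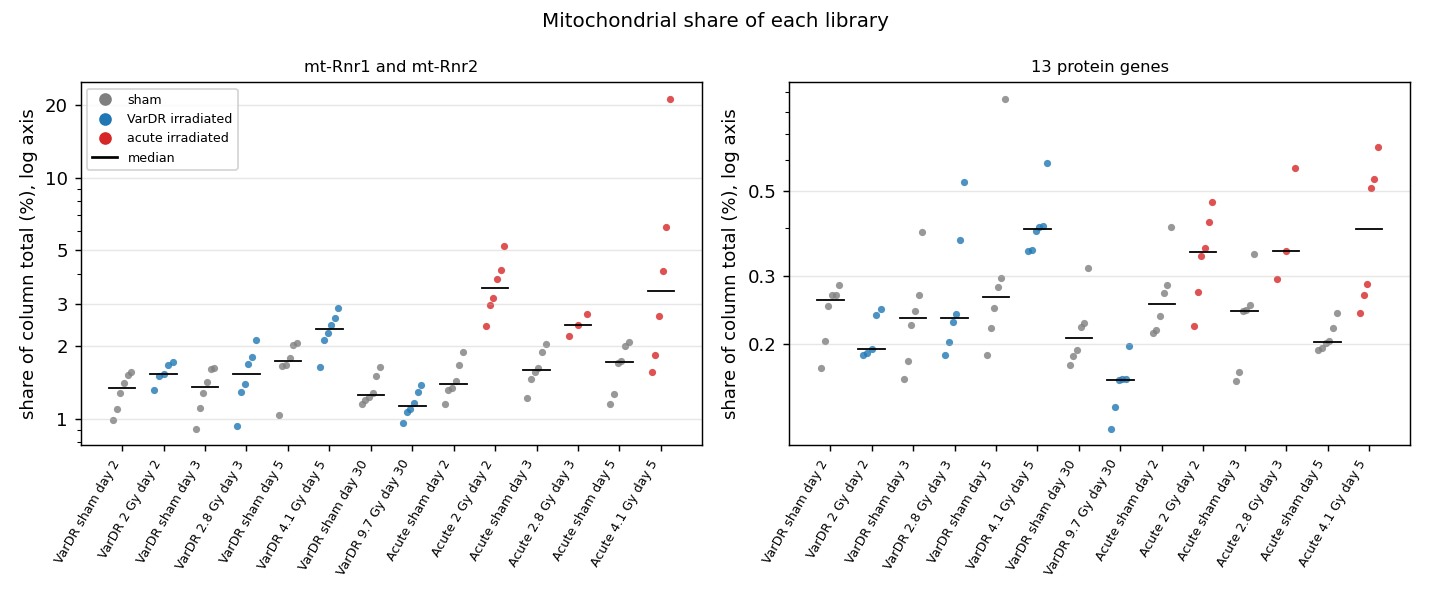
Share of the column total (percent, log axis) taken by mt-Rnr1 and mt-Rnr2 together (left) and by the 13 protein genes (right), 1 point per library, with group medians as bars. Acute irradiated libraries of days 2 and 3 lie above all their shams on the left, and 1 library of acute day 5 reaches 21.2%.

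Single genes were then compared on rescaled values, as log2(value + 1), in a limma fit over all 21124 genes that reached a value of 10 in at least 3 libraries. Of the 37 members 17 passed this filter: all 13 protein genes, both rRNAs and 2 tRNAs, mt-Tm and mt-Tp. A member was called at a Benjamini-Hochberg adjusted p under 0.05. In the VarDR day 2 comparison 0 of the 17 were called in limma and 2 had an unadjusted p under 0.05, and over all genes 2.52% were called higher and 0.743% lower. On VarDR day 3, 0 were higher and 1 was lower, against 5.12% higher and 5.23% lower over all genes. On VarDR day 5, 0 were called and 1 had an unadjusted p under 0.05, against 5.41% and 3.38%. On VarDR day 30, 2 were higher and 0 lower, against 12.6% and 12.5%.
After acute irradiation, 2 of the 17 were higher and 0 lower on day 2, against 7.36% higher and 7.46% lower over all genes. On day 3, 3 were higher and 0 lower, against 11.8% and 8.72%. On day 5, 3 were higher and 0 lower, against 9.75% and 9.1%. With 17 members, most of these counts lie within a few genes of what the share over all genes would give. The response to acute exposure minus the response to VarDR exposure was called for 0 of 17 members on each of 3 days in limma, with 2, 3 and 0 members at an unadjusted p under 0.05 on days 2, 3 and 5. Over all genes that difference was called higher for 0.194% and lower for 1.39% on day 2, for 0.653% and 1.85% on day 3, and for 1.01% and 1.65% on day 5.

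The protein genes as a class are described by their median. This median log2 difference was -0.23, -0.32, 0.26 and 0.23 on VarDR days 2, 3, 5 and 30, where the median over all genes was -0.04, -0.03, 0.10 and -0.19. It was -0.01, -0.29 and 0.28 on acute days 2, 3 and 5, with 0.05, 0.30 and 0.02 over all genes. The 2 rRNAs had medians of 0.20, -0.48, 0.44 and 1.02 in the VarDR comparisons and 0.75, -0.40 and 0.99 in the acute ones.
These values depend on the scaling. Scaling to equal totals moved the median of all genes to 0.71 on VarDR day 3, -1.31 on VarDR day 30, 0.80 on acute day 2, 1.44 on acute day 3 and 0.62 on acute day 5. In the values as deposited, where each acute group appears to have been scaled apart, it was 0.50, 1.20 and 0.88 on acute days 2, 3 and 5.

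mt-Nd6, a subunit of complex I (NADH dehydrogenase) and the only mRNA of the light strand, was higher after acute irradiation on all 3 days. On day 3 the irradiated libraries held 336, 507 and 787, and the lowest, median and highest sham values were 0, 40.6 and 70.3. The groups did not overlap, and mt-Nd6 rose by 4.47 ± 0.99, adjusted p = 0.000357 (log2 difference ± standard error, limma). On day 5 the irradiated values were 16.6, 47.5 and 159 and the sham values 0, 7.51 and 12.4, without overlap, a rise of 2.94 ± 0.81, adjusted p = 0.00471. On day 2 the values were 63.8, 124 and 325 against 9.06, 21.2 and 90.6, where the highest sham lay within the irradiated range, and the rise was 2.52 ± 0.81, adjusted p = 0.0207.
The 3 calls were made under each of the 4 other scalings, where the differences were 2.34 to 3.33 on day 2, 4.19 to 5.62 on day 3 and 2.91 to 3.76 on day 5. Liver signal was over 0.5% in 3 of 6, 2 of 3 and 3 of 6 of these irradiated groups, against 1, 0 and 0 of their 6 shams. Without such libraries the differences were 2.87, 3.87 and 2.18, with adjusted p = 0.0549, 0.118 and 0.133. On day 3 that leaves 1 irradiated library, whose spread is then taken from the other groups. The day 2 call was also lost without acute 2 Gy replicate 1 (adjusted p = 0.0656) or without sham replicate 2 (0.0560) or 3 (0.0625), and with a pseudocount of 0.1 (0.135).

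In VarDR mice mt-Nd6 did not pass the test. Its values were 19.5, 98.4 and 115 on day 3 against 14.3, 17.5 and 42.0 in the shams (1.74 ± 0.81, adjusted p = 0.195), with overlap. On day 5 they were 8.95, 40.2 and 71.1 against 0, 10.996 and 71.6 (1.94 ± 0.81, adjusted p = 0.129), and without sham replicate 3 the difference was 2.55, adjusted p = 0.0311. On day 2 the irradiated values were 10.3, 24.3, 58.7, 63.5 and 188 against 17.9, 42.7 and 231 (-0.33 ± 0.85, adjusted p = 0.947). On day 30 they were 0, 17.7 and 35.9 against 9.32, 14.9 and 101 (-0.79 ± 0.81, adjusted p = 0.516).
The groups overlapped in each of these 4 comparisons. The acute response of mt-Nd6 minus its VarDR response was 2.85 ± 1.17, adjusted p = 0.350 on day 2, 2.73 ± 1.28, adjusted p = 0.245 on day 3 and 0.99 ± 1.14, adjusted p = 0.741 on day 5, so the exposures were not shown to differ.
The kit keeps strand, but whether the counting used it is not given in the sources used here. Without strand, reads of mt-Nd6 cannot be told from heavy-strand RNA that lies opposite it.

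mt-Nd5, the heavy-strand neighbour whose end overlaps mt-Nd6 on the other strand, served as the heavy-strand counterpart. It passed the test in none of the 7 comparisons: the log2 differences were -0.05, -0.15, 0.10 and -0.25 on VarDR days 2, 3, 5 and 30 and 0.47, 0.61 and 0.67 on acute days 2, 3 and 5 (adjusted p from 0.152 to 0.987 in limma). Its acute day 3 values were 1114, 1441 and 1964 against 778, 917 and 1308 in the shams, with overlap. Under equal totals, mt-Nd5 was called higher on all 3 acute days (1.27, 1.84 and 1.33) and lower on VarDR day 30 (-1.62), in the direction of the median of all genes under that scaling.

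A ratio of 2 genes within a library does not depend on the scaling of that library. The log2 ratio of mt-Nd6 to mt-Nd5 was tested by an exact two-sided permutation test over libraries, with 21 ratio tests adjusted together. On acute day 3 it was -1.52 ± 0.57 against -4.54 ± 0.51 (SD, n = 3 and 5, exact p = 0.0179, adjusted p = 0.0417), without overlap, and this p is the smallest that these numbers allow. The call was lost in each of the 8 tests that left out 1 of these libraries, at differences of 2.70 to 3.24 and adjusted p = 0.06 to 0.0909 in exact permutation tests. Their exact p, 0.0286 or 0.0476, was also the smallest that the remaining numbers allow. These lost calls alone therefore do not show a smaller difference. On acute day 5 it was -5.15 ± 0.64 against -7.04 ± 0.60 (n = 6 and 5, exact p = 0.00216, adjusted p = 0.0114), without overlap. On acute day 2 it was -3.33 ± 0.97 against -5.45 ± 0.71 (n = 6 and 6, exact p = 0.00433, adjusted p = 0.0182) and the ranges overlapped. Libraries with mt-Nd6 at 0 have no ratio, which removed 1 sham on acute days 3 and 5.
In VarDR mice the ratio was higher on day 3, at -3.54 ± 0.44 against -5.48 ± 0.66 (n = 6 and 6, exact p = 0.00216, adjusted p = 0.0114), without overlap. It was -4.21 ± 1.61 against -3.92 ± 1.54 on day 2 (n = 5 and 6, exact p = 0.771, adjusted p = 0.816), -5.55 ± 1.07 against -6.88 ± 1.71 on day 5 (n = 6 and 5, exact p = 0.134, adjusted p = 0.217) and -5.22 ± 0.36 against -5.42 ± 1.24 on day 30 (n = 5 and 6, exact p = 0.777, adjusted p = 0.816). Without libraries over 0.5% liver signal, the mean differences were 1.61 on VarDR day 3, 2.56 on acute day 2 and 1.85 on acute day 5, with adjusted p = 0.0643, 0.0536 and 0.0536 in the exact permutation tests. Among the irradiated, this left out 3 of 6 libraries on each of acute days 2 and 5, and 2 of 6 on VarDR day 3. Fewer libraries raise the smallest exact p possible, so these lost calls alone do not show a smaller difference. On acute day 3 only 1 irradiated library is left without those over 0.5% liver signal, and no test was made.

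**Figure D3:**
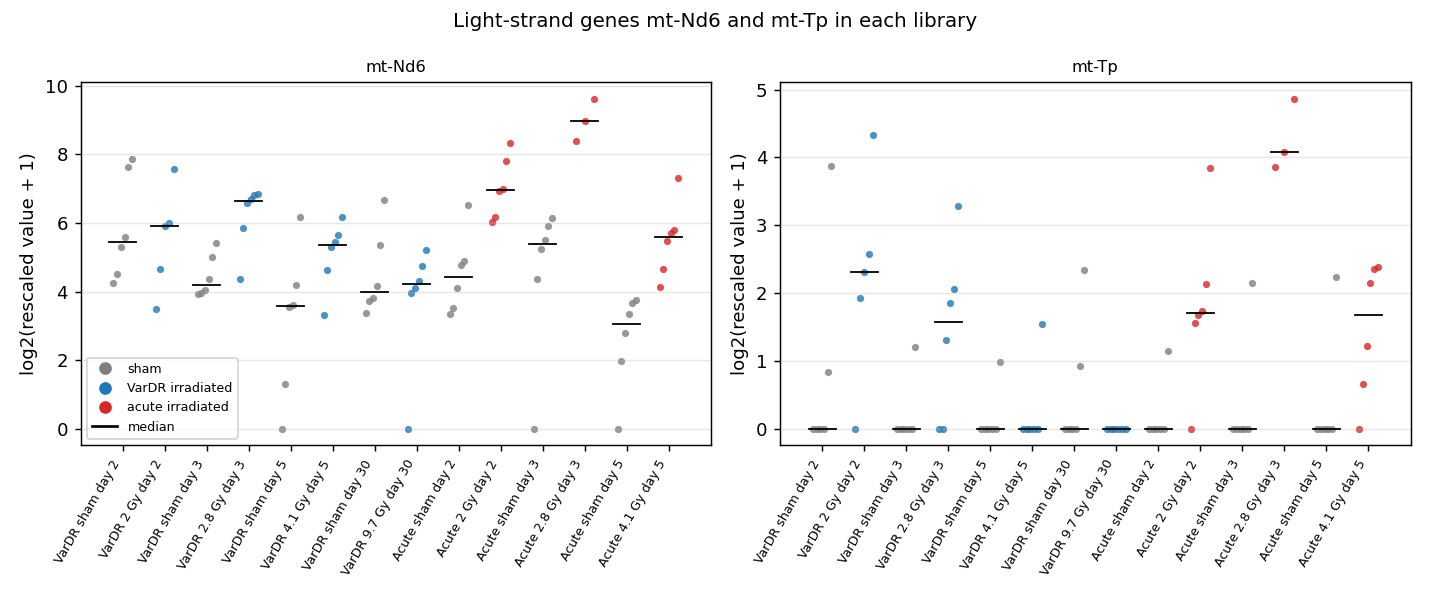
log2(rescaled value + 1) of mt-Nd6 (left) and mt-Tp (right), both on the light strand, 1 point per library with group medians as bars. For mt-Nd6 the 3 acute libraries of day 3 lie at 336 to 787 in rescaled values, above all their shams. For mt-Tp most sham libraries are at 0.

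mt-Tp, the proline tRNA of the light strand, spans bases 15356 to 15422 of chromosome M, and mt-Nd6 spans 13552 to 14070. Its gene is printed with its anticodon in capitals, and beside it mt-Tm, the other tRNA that passed the filter, from the GENCODE M21 transcripts on the sense strand.
mt-Tp: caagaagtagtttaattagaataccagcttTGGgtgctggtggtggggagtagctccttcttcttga
mt-Tm: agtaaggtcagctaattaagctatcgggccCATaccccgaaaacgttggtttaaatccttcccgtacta
On acute day 3, mt-Tp was at 13.5, 15.9 and 28.2 in the irradiated libraries and at 0 in 5 of 6 shams, with 3.45 in the other, so the groups did not overlap. The limma test called it (9.01e-06, adjusted p), and with shams at 0 the fitted difference depends on the pseudocount. Of these 3 libraries, 2 held over 0.5% liver signal, and the 1 that remains without them gives no spread of its own. The day 2 irradiated libraries of the acute mode held 0, 2.26 and 13.3 as lowest, median and highest values, and 5 of 6 shams were at 0 with 1.22 in the other (adjusted p = 0.0395). The groups overlapped at 0 there, and the call was lost in 9 of 12 fits that left out 1 library (adjusted p up to 0.190), namely without any of acute 2 Gy replicates 1, 2, 3 and 4 or of sham replicates 1, 2, 3, 4 and 6.
On acute day 5 the values were 0, 2.38 and 4.22, with 5 of 6 shams at 0 (adjusted p = 0.200). In VarDR mice the highest irradiated values were 19.1 on day 2, 8.74 on day 3 and 1.92 on day 5, no comparison passed (adjusted p = 0.230, 0.203 and 0.949), and on day 30 all 6 irradiated libraries were at 0. The acute minus VarDR difference on day 3 had an adjusted p of 0.10.

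The other tRNAs were close to the limit of these libraries. Of the 22, 8 lie on the light strand and 14 on the heavy strand, and 21 were above 0 in fewer than 40 of the 80 libraries. The highest rescaled value of any tRNA was 28.2. mt-Tm was above 0 in 57 libraries, with values of 0.446, 3.32 and 4.27 on acute day 2 against 0, 0 and 1.80 in the shams (1.36 ± 0.67, adjusted p = 0.196 in limma), and did not pass in the other comparisons. The tRNAs of each strand were also summed, without a test. The 8 light-strand tRNAs gave 16.5, 17.1 and 33.3 on acute day 3 against 0 to 8.60 in the shams, and mt-Tp alone held 13.5 to 28.2 there. The light-strand sums were 0.345 to 15.7 on acute day 2 against 0 to 3.79, and 1.33 to 5.04 on acute day 5 against 0 to 11.2, so the acute day 5 libraries lay within the sham range. The 14 heavy-strand tRNAs gave 3.04 to 17.2, 4.23 to 20.99 and 4.85 to 32.99 on acute days 2, 3 and 5, against 0 to 5.08, 0 to 21.04 and 2.21 to 8.08. In VarDR mice the light-strand sums reached 20.1 on day 2 and were 0 in all 6 irradiated libraries of day 30. The filter kept a tRNA only if it was high in some libraries, so the 2 tested tRNAs do not speak for the 22. Depth in reads is unknown, and a tRNA listed at 0 may lie below what these libraries detect.

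Among the other complex I genes, mt-Nd4 was called on acute day 5. Its values were 2442, 3473 and 8271 in irradiated libraries and 1876, 2007 and 2405 in shams, without overlap, and it rose by 0.97 ± 0.27, adjusted p = 0.00498. Without the 3 libraries over 0.5% liver signal the difference was 0.36 (adjusted p = 0.311). mt-Nd4 had 2217, 3704 and 4892 on acute day 2 against 1710.0, 1904 and 5544 (0.65 ± 0.27, adjusted p = 0.103), with overlap.
mt-Nd4l, which overlaps the start of mt-Nd4, was called on acute day 3, with 81.4, 145 and 219 against 0, 25.2 and 86.6 in the shams, with overlap, and 4.04 ± 1.21, adjusted p = 0.0114. With Gm10222 added, the sham values were 9.76, 75.5 and 107 and the difference 1.31 ± 0.60, adjusted p = 0.112. The call was also lost without acute 2.8 Gy replicate 1, where the log2 difference was 3.70 (adjusted p = 0.0738). It was lost as well with a liver term (3.14, adjusted p = 0.0832) and in a fit of only the groups compared (4.04, adjusted p = 0.112). It was 3.29 (adjusted p = 0.349) without libraries over 0.5% liver signal, with 1 irradiated library left.
mt-Nd1, mt-Nd2 and mt-Nd3 passed in none of the 7 comparisons. Over all 7, their log2 differences ran from -0.46 to 0.14 for mt-Nd1 and from -0.32 to 0.69 for mt-Nd2. mt-Nd3 with its copy did not pass either and ran from -0.91 to -0.16.

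mt-Co1, the catalytic core of cytochrome c oxidase (complex IV), was higher in VarDR mice on day 30. The irradiated libraries held 77776, 98301 and 140204 and the shams 38087, 48128 and 62975, without overlap. The limma difference was 1.11 ± 0.22, adjusted p = 9.19e-05, but it turned to -0.27 under equal totals and to -0.14 under quantile normalization. With its copies mt-Co1 had 1.20 ± 0.22, adjusted p = 1.71e-05, and the other complex IV subunits did likewise: mt-Co2 with copies 0.91 ± 0.19, adjusted p = 0.000194 and mt-Co3 with copies 0.82 ± 0.21, adjusted p = 0.00170, which turned to -0.46 and -0.55 under equal totals and to -0.08 and -0.31 under quantile normalization. When 7SL RNA, haemoglobin and mitochondrial genes were left out of equal totals, mt-Co1 had 0.23 (adjusted p = 0.302), mt-Co2 with copies 0.04 and mt-Co3 with copies -0.06. For mt-Co2 with copies the irradiated values were 20244, 24529.7 and 31946 against 11289.7, 13770.0 and 16093, without overlap. The mt-Co2 entry alone had 45.7, 2412, 2988, 3015, 5208 and 7353 against 469, 1534 and 2141 and did not pass (0.55 ± 1.30, adjusted p = 0.802).
mt-Atp6, a membrane subunit of ATP synthase (complex V), had 11003, 13049 and 18391 with its copy against 5708, 7109 and 9069.9, without overlap, and 0.92 ± 0.23, adjusted p = 0.00130, which turned to -0.45 under equal totals. mt-Atp8, the small ATP synthase subunit without a copy, had 0.63 ± 0.26, adjusted p = 0.0619, and mt-Cytb, the core of complex III, 0.27 ± 0.28, adjusted p = 0.521.

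On VarDR day 3 mt-Co1 was lower. The irradiated values were 30234, 48628 and 81416 and the sham values 68267, 89969.6 and 110784, with overlap. The difference was -0.73 ± 0.22, adjusted p = 0.0206, and -0.83 ± 0.22, adjusted p = 0.00511 with copies, but it was 0.11 under equal totals and 0.17 under quantile normalization. Without VarDR 2.8 Gy replicate 3 or sham replicate 5 of that day it was -0.57 and -0.66, with adjusted p = 0.120 and 0.0676. mt-Co3 with its copy had -0.63 ± 0.21, adjusted p = 0.0355, turned to 0.21 and 0.01 under the same scalings, and was lost without any of VarDR 2.8 Gy replicates 3, 4 and 6 or sham replicates 1, 3 and 5 of that day (adjusted p up to 0.192).
In the other comparisons the mt-Co1 entry did not pass. Its values were 30319, 34924, 36617, 37239.5 and 37853 on VarDR day 2 against 32295, 43266 and 85539.8 (-0.39 ± 0.23, adjusted p = 0.517), and 74552, 86252 and 102794 on VarDR day 5 against 48919, 58679 and 131763 (0.43 ± 0.22, adjusted p = 0.256). On acute day 2 they were 21842, 35606 and 46021 against 37289, 45192 and 120582, with -0.62 ± 0.22, adjusted p = 0.0501, and -0.64 ± 0.22, adjusted p = 0.0313 with copies. The mt-Co1 entry was called in 6 of 12 fits that left out 1 library (adjusted p from 0.0251), namely without acute 2 Gy replicate 1, 4 or 6 or sham replicate 3, 4 or 5, and was -0.37 (adjusted p = 0.279) without sham replicate 1. The value with copies turned to 0.16 under equal totals and 0.49 under quantile normalization, and was -0.41 (adjusted p = 0.205) without acute sham replicate 1. It was also lost without any of acute 2 Gy replicates 2, 3 and 5 or sham replicate 6.
On acute day 3 mt-Co1 held 30409.7, 34575 and 67057 against 47455, 63684 and 79197 (-0.58 ± 0.27, adjusted p = 0.129), and -0.93 with adjusted p = 0.0333 without acute 2.8 Gy replicate 1. On acute day 5 it held 40615, 52699 and 66144 against 38599.8, 42781 and 48599 (0.28 ± 0.22, adjusted p = 0.462). mt-Co3 with its copy had -0.61 ± 0.21, adjusted p = 0.0351 on acute day 2 and -0.78 ± 0.25, adjusted p = 0.0212 on acute day 3, but 0.20 and 0.45 under equal totals. The first was lost without any of acute 2 Gy replicates 3 and 5 or sham replicates 1, 2 and 6, and the second without acute 2.8 Gy replicate 2 or 3 (adjusted p = 0.152 and 0.138).

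**Figure D4:**
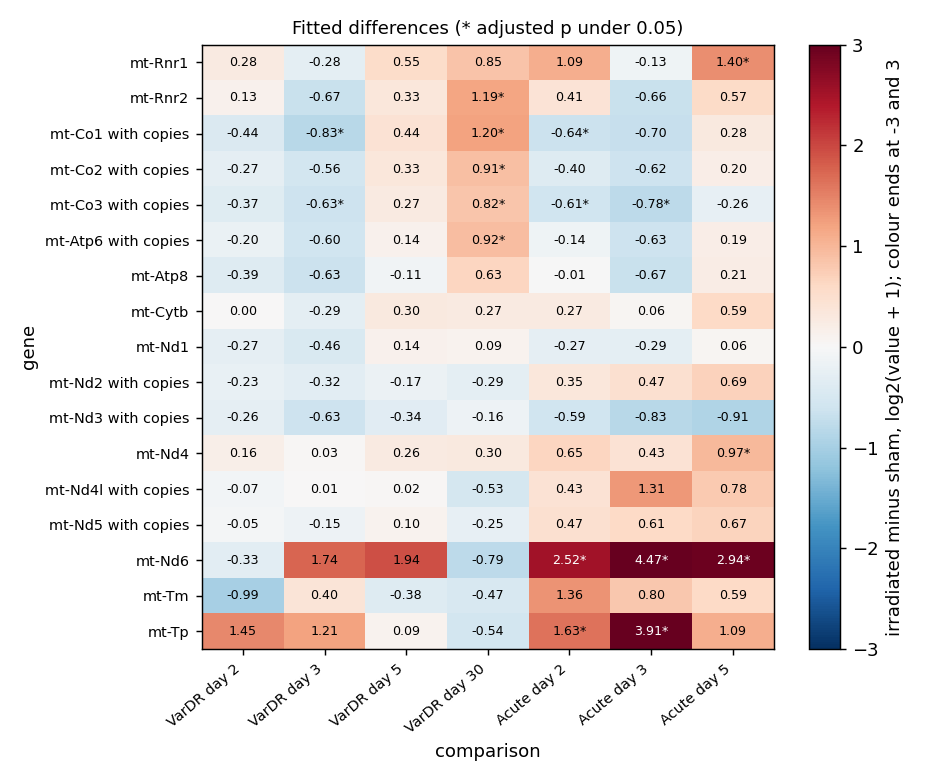
Fitted log2 difference of irradiated minus sham for 17 mitochondrial genes, genes down the side and comparisons along the bottom, with the colour ending at -3 and 3. Genes with nuclear copies are shown as sums with them, and an asterisk marks an adjusted p under 0.05 in limma. mt-Nd6 has 2.52, 4.47 and 2.94 in the acute columns, and the complex IV genes with copies have 0.82 to 1.20 on VarDR day 30.

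mt-Rnr2 and mt-Rnr1, which are cut from the same heavy-strand precursor, are rRNAs of the mitochondrial ribosome. On VarDR day 30 mt-Rnr2 held 761318, 939715 and 1515878 against 309614, 402748 and 788315 in the shams, with overlap, and 1.19 ± 0.31, adjusted p = 0.00240, which turned to -0.19 under equal totals and -0.13 under quantile normalization and was 0.31 (adjusted p = 0.322) when 7SL RNA, haemoglobin and mitochondrial genes were left out of equal totals. mt-Rnr1 held 32875, 47479.7 and 74188 against 19099, 26361 and 47703, with 0.85 ± 0.43, adjusted p = 0.145.
On acute day 5 mt-Rnr1 was called, with 31182, 56618 and 1200498 against 19839, 32877 and 63907 and 1.40 ± 0.43, adjusted p = 0.0130, and the groups overlapped. Acute 4.1 Gy replicate 5 supplied the highest value, and without it the difference was 0.67 (adjusted p = 0.198). Without libraries over 0.5% liver signal it was 0.26 (adjusted p = 0.768). Replicate 5 also held 40383 of Gm42418, a gene that overlaps a nuclear ribosomal RNA gene on chromosome 17, against 6962 to 12105 in the other 5 libraries. Its part in the mt-Rnr1 result was not tested. mt-Rnr2 held 333758, 645598 and 4317565 against 395887, 511899 and 696854 on that day (0.57 ± 0.31, adjusted p = 0.228).

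On acute day 2 mt-Rnr1 had 31315, 52446 and 184775 against 19199, 26247 and 55599, with 1.09 ± 0.43, adjusted p = 0.0811. It passed without acute 2 Gy replicate 6 (1.27) or without sham replicate 1 (1.30, adjusted p = 0.0353). mt-Rnr2 had 378806, 641095 and 796359 against 348942, 414719.9 and 865910.5 (0.41 ± 0.31, adjusted p = 0.476). On acute day 3 the values were 33896, 37855 and 41132 for mt-Rnr1 against 31875, 41072 and 52505 (-0.13 ± 0.53, adjusted p = 0.896). For mt-Rnr2 they were 369371, 445674 and 449040.5 against 553507, 648161 and 788012 (-0.66 ± 0.38, adjusted p = 0.218), and these groups did not overlap.
The differences of mt-Rnr1 on VarDR days 2, 3 and 5 were 0.28, -0.28 and 0.55, and those of mt-Rnr2 0.13, -0.67 and 0.33. None of the 6 passed (adjusted p from 0.196 to 0.947).

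The balance of the rRNAs within libraries was called as shifted toward mt-Rnr1 on acute days 2 and 5. Only the day 2 call held in every test that left out 1 library. The exposures were not compared in a test of this ratio. The log2 ratio of mt-Rnr2 to mt-Rnr1 was 3.35 ± 0.61 against 4.03 ± 0.13 on acute day 2 (SD, n = 6 and 6, exact p = 0.00216, adjusted p = 0.0114), with the irradiated libraries at 2.11 to 3.69 and the shams at 3.86 to 4.20. Acute 2 Gy replicate 5 weighed most in this: the difference was -0.68 with it and -0.43 without it, and was still called (adjusted p = 0.0114, exact permutation test). On acute day 5 it was 3.10 ± 0.70 against 3.94 ± 0.29 (exact p = 0.0130, adjusted p = 0.0390, exact permutation test), with overlap. The difference was -0.59 without acute 4.1 Gy replicate 5, and the call was lost there and without any of sham replicates 1, 2, 3, 5 and 6 (adjusted p = 0.0545 to 0.0636, exact permutation tests). On acute day 3 it was 3.48 ± 0.06 against 4.02 ± 0.24 (n = 3 and 6, exact p = 0.0238, adjusted p = 0.05), without overlap but just short of the threshold, where the smallest exact p possible is 0.0119.
In VarDR mice on day 30 the ratio moved the other way, at 4.37 ± 0.21 against 4.03 ± 0.17 (n = 6 and 6, exact p = 0.0173, adjusted p = 0.0417), with overlap. This call was lost without any of VarDR 9.7 Gy replicates 1, 2, 3 and 4 or sham replicates 1, 2, 5 and 6 (adjusted p up to 0.0727, exact permutation tests). On VarDR days 2, 3 and 5 the differences were -0.15, -0.38 and -0.22, with adjusted p = 0.761, 0.0744 and 0.159 in exact permutation tests. Without libraries over 0.5% liver signal the acute differences were -0.93 on day 2 and -0.62 on day 5, with adjusted p = 0.0536 and 0.0612 in exact permutation tests. Both tests held 3 fewer irradiated libraries, which raises the smallest exact p possible.

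The log2 ratio of mt-Co1 to mt-Rnr2 compares an mRNA with an rRNA of the same strand. On acute day 2 it was -4.14 ± 0.66 against -3.11 ± 0.26 (n = 6 and 6, exact p = 0.00649, adjusted p = 0.0227), with overlap. On VarDR day 2 it was -3.53 ± 0.25 against -3.01 ± 0.20 (n = 5 and 6, exact p = 0.00216, adjusted p = 0.0114), where the highest irradiated and the lowest sham library both stood at -3.21. The irradiated mt-Rnr2 values behind the latter were 280402, 380367, 405407, 458591 and 563039, and the shams had 236781, 336185 and 744815. No library of that comparison had liver signal above 0.0533%. In the other 5 comparisons the ratio differed by -0.06, 0.10 and -0.08 on VarDR days 3, 5 and 30 and by 0.09 and -0.29 on acute days 3 and 5 (exact p from 0.543 to 0.840). Without libraries over 0.5% liver signal the acute day 2 ratio differed by -1.43 (adjusted p = 0.0536, exact permutation test). That test, too, held fewer libraries, which raises the smallest exact p possible.

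**Figure D5:**
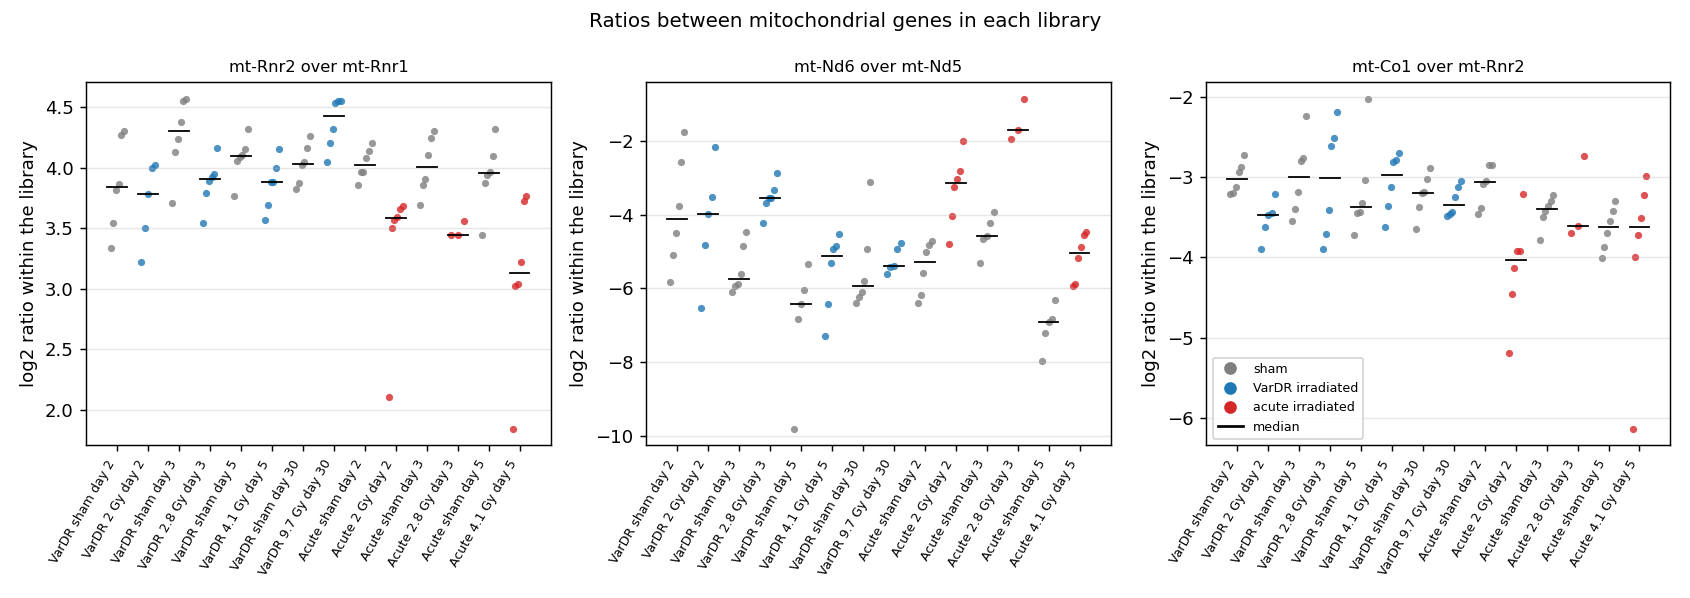
log2 ratio within each library of mt-Rnr2 to mt-Rnr1 (left), mt-Nd6 to mt-Nd5 (centre) and mt-Co1 to mt-Rnr2 (right), 1 point per library with group medians as bars. The acute irradiated libraries of days 2 and 3 lie below their shams on the left, and those of days 3 and 5 above their shams in the centre.

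Relative to mt-Co1, with copies added to each, the other 12 protein genes were set beside all genes measured the same way. On VarDR day 30 all 12 were lower per 100 of mt-Co1, with a median irradiated to sham ratio of 0.491, while 88.0% of all genes were lower by the same measure with a median of 0.416. On acute day 2 all 12 were higher, with a median of 1.72, while 84.5% of all genes were higher with a median of 1.56. All 12 were also higher on VarDR days 2 and 3, with medians of 1.13 and 1.26. Over all genes 75.7% and 85.3% were higher there, with medians of 1.27 and 1.78. On VarDR day 5, 1 was higher and 11 were lower, while 70.9% of all genes were lower. On acute day 3, 10 were higher and 2 lower, while 82.9% of all genes were higher. On acute day 5, 6 were higher and 6 lower, while 64.2% of all genes were lower. mt-Nd4 stood at 8.54 ± 1.27 per 100 of mt-Co1 on acute day 2 against 3.50 ± 0.635 in the shams, and at 1.94 ± 0.188 against 3.62 ± 0.385 on VarDR day 30 (SD, n = 6 in each). These are described without a test.

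Nuclear genes that serve the mitochondrion were counted from lists chosen with earlier results of these data known, and several counts turned with the scaling. So did the counts over all genes: under equal totals 32.5% were called higher on VarDR day 3, 56.7% lower on VarDR day 30, and 36.2%, 62.0% and 27.2% higher on acute days 2, 3 and 5. In the values as deposited 25.4%, 54.8% and 47.2% were called higher on acute days 2, 3 and 5. These shares are the background of each list count under those scalings.
Of 56 nuclear-encoded subunits of the respiratory chain, 25 were higher and 0 lower on VarDR day 30 (median 0.37), against 12.6% higher and 12.5% lower over all genes, but 0 higher and 38 lower under equal totals. Cox5a, a complex IV subunit, had 1.28, and -0.10 under equal totals. Ndufa1, a complex I subunit, had 1.57, and 0.20 under equal totals. On VarDR day 3, 0 were higher and 12 lower (median -0.30), against 5.12% and 5.23% over all genes, but 23 higher and 0 lower under equal totals. The ATP synthase subunits Atp5b and Atp5h were among the 12, at -1.18 and -1.08. On VarDR day 2, 0 were called in limma, against 2.52% higher and 0.743% lower over all genes, and 14 had an unadjusted p under 0.05. Quantile normalization called 5 lower, against 1.02% of all genes. Equal totals called 1 lower, against 0.365% of all genes. So did equal totals without 7SL, haemoglobin and mitochondrial genes, against 0.338%. On VarDR day 5, 2 were higher and 0 lower, against 5.41% and 3.38% over all genes. The 2 were the complex I subunits Ndufa1 (0.82) and Ndufs1 (0.49). Without libraries over 0.5% liver signal 1 was higher and 7 were lower, against 5.19% and 3.50% over all genes.
For acute day 2, 2 subunit genes were higher, Cox5a (0.60) and Ndufs4 of complex I (0.54), and 13 lower (median -0.08), against 7.36% and 7.46% over all genes, but 25 higher and 6 lower in the values as deposited and 32 higher and 5 lower under equal totals. Atp5b had -1.48, and fell by 0.67 to 1.36 under the 4 other scalings, and Atp5h had -1.23, falling by 0.43 to 1.26 under them. For acute day 3, 2 were higher, Cox5a (0.58) and the ATP synthase subunit Atp5g3 (0.69), and 9 lower (median 0.07), against 11.8% and 8.72% over all genes, but 42 higher and 3 lower in the values as deposited and 46 higher and 3 lower under equal totals. Cox6c, of complex IV, and Uqcrh, of complex III, had -2.17 and -1.87 there, and both were called lower under each of the 4 other scalings. On acute day 5, 11 were higher and 0 lower (median 0.25), against 9.75% and 9.1% over all genes, with Cox5a at 1.18 and Cox6b1 at 1.00, and 9 to 51 were higher and 0 to 1 lower under the other scalings.

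Of 36 genes for transcription and RNA handling in mitochondria, 0 to 3 were higher and 0 to 8 lower in the 7 comparisons, against 2.52 to 12.6% and 0.743 to 12.5% over all genes. Under equal totals, however, 12, 13, 27 and 7 were higher and 0 lower on VarDR day 3 and acute days 2, 3 and 5. Under that scaling 35 were lower on VarDR day 30 (median -1.65), where 56.7% of all genes were lower with a median of -1.31. In rescaled values 3 were higher and 8 lower on VarDR day 30 (median -0.30), against 12.6% and 12.5% over all genes. Rexo2, an exonuclease that clears short RNAs, had 1.66 on VarDR day 30, 0.81 on VarDR day 5 and 1.13 on acute day 5, above 0 under each scaling. It had -0.74 on VarDR day 3, and 0.10 under equal totals. Trmt10c, part of the enzyme that cuts the 5′ ends of mitochondrial tRNAs, had -0.60 on VarDR day 5, below 0 under each scaling, and -0.72 and -0.74 on acute days 3 and 5, which turned to 0.29 and 0.20 in the values as deposited. Slirp, which with Lrpprc stabilises mitochondrial mRNAs, had -1.10 on VarDR day 2, and -0.95 to -1.11 under the other scalings. Lrpprc had -0.57 on VarDR day 3, and 0.28 under equal totals. Fastkd5 and Fastkd1, members of a family of mitochondrial RNA-binding proteins, had -1.10 on VarDR day 2 and -0.89 on VarDR day 30, below 0 under each scaling. Gtpbp3, which takes part in modifying mitochondrial tRNAs, had -0.89 on VarDR day 30, also below 0 under each. Mtpap, the mitochondrial poly(A) polymerase, had 0.44 there and -0.93 under equal totals. Fastk had -0.73 on acute day 3 and Trnt1, which adds the CCA end to tRNAs, -0.54 on acute day 5, and both turned in the values as deposited, to 0.28 and 0.41.
Of 10 genes for replication of mitochondrial DNA, 0 were called higher in limma in any comparison and 0 to 2 lower, with 1 to 4 at an unadjusted p under 0.05. Over all genes 2.52 to 12.6% were called higher and 0.743 to 12.5% lower. Under equal totals, however, 5 of the 10 were higher on VarDR day 3, 8 on acute day 3 and 1 on each of acute days 2 and 5. All 10 were lower on VarDR day 30 under that scaling (median -1.56), where 56.7% of all genes were lower and the median of all genes was -1.31. Rrm2b, a ribonucleotide reductase subunit, and Polg2, a subunit of the mitochondrial DNA polymerase, had -0.76 and -0.88 on acute day 5, and 0.19 and 0.06 in the values as deposited. Polg2 also had -0.74 on VarDR day 3, and 0.10 under equal totals. Primpol, a primase and polymerase, had -0.79 on VarDR day 5, and Tk2, the mitochondrial thymidine kinase, -0.49 on VarDR day 30, both below 0 under each scaling.
Of 6 regulators of mitochondrial biogenesis, 1 was higher and 2 were lower on VarDR day 30 (median -0.45), against 12.6% and 12.5% over all genes. On VarDR day 3, 1 was higher and 1 lower (median -0.20), against 5.12% and 5.23%. On each acute day 0 were higher and 1 lower, where 7.46%, 8.72% and 9.1% of all genes were lower on days 2, 3 and 5. On VarDR days 2 and 5, 0 were called in limma and 0 had an unadjusted p under 0.05. Under equal totals 5 were lower on VarDR day 30 and 4 higher on acute day 3. Gabpa, a transcription factor subunit for nuclear respiratory genes, had -0.81 on VarDR day 30, and Ppargc1b, a transcriptional coactivator, -1.61, both below 0 under each scaling. Esrra, a nuclear receptor, had 0.61 on VarDR day 3, above 0 under each. Nrf1, a transcription factor for nuclear respiratory genes, had 0.93 on VarDR day 30 and -0.44 there under equal totals. It had -0.52 on VarDR day 3 and -0.70, -0.89 and -0.76 on acute days 2, 3 and 5. Under equal totals these became 0.32, 0.11, 0.34 and -0.10. All first values given for a gene are limma log2 differences with adjusted p under 0.05.

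Blood cell markers were counted in the same comparisons. Of 12 platelet markers 11 were called higher on VarDR day 2 and 12 in each of the other 6, and of 12 B cell markers 9 to 12 were called lower. Over all genes 2.52 to 12.6% were called higher and 0.743 to 12.5% lower in these comparisons. Summed platelet markers ran from 317281 to 412827 on acute day 3 against 83493 to 118129 in the shams, and from 165226 to 224045 on VarDR day 30 against 66364 to 104337. Of 11 tested red cell markers, all 11 were called lower on acute days 2 and 3, 6 on acute day 5 and 7 on VarDR day 3, whereas 10 were called higher on VarDR day 30. Of 12 neutrophil markers 1 to 9 were called higher and 0 lower, of 12 T cell markers 0 to 6 were called higher and 0 to 6 lower, and of 10 monocyte markers 1 to 4 higher and 0 to 5 lower. The sums of the red cell markers ran from 5310841 to 10591092 on VarDR day 30 against 1174145 to 4197665, and from 16727 to 24024 on acute day 3 against 3584797 to 4337827.
Of 20 liver markers 19 were called higher on acute day 3, against 11.8% of all genes, and liver signal there was 0.177 to 2.67% against 0.00411 to 0.120% in the shams. Of 12 heart and muscle markers, which the cardiac puncture could bring in, 11 were at 0 in 12 (Myh7) to 75 (Nppa) of 80 libraries. Their summed rescaled values were 9600.0 in VarDR sham day 30 replicate 6, 3234 in VarDR sham day 2 replicate 6 and 2913 in VarDR 4.1 Gy day 5 replicate 3, and 12.8 to 523 in the others. Leaving out any 1 library of the VarDR day 30 comparison kept mt-Co1 at 1.02 to 1.19 and mt-Rnr2 at 1.07 to 1.36, each called in limma. Of the 10 heart and muscle markers tested, at most 1 was called in either direction in any comparison. Beyond the values with and without libraries given above, the part of these cell types in the mitochondrial results was not tested, and in whole blood a change in the number of cells of a type cannot be told apart from a change in RNA per cell.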

How the data were processed

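The 80 libraries hold total RNA of whole blood, drawn by cardiac puncture into RNA-stabilising tubes and depleted of globin mRNA and ribosomal RNA before stranded library preparation, per the labels' protocols. The deposited values are a signal, read counts per gene as normalized by the authors and not whole, with bcl2fastq 2.19, kallisto 0.44.0, sleuth, DESeq2 and the GRCm38 build named in the submitters' processing notes without roles. The deposited sheet carries a title for lung and for a day with no sample, but its columns match the labelled blood samples. Of its 82 columns, 80 matched a sample and 2 were not used. A further 26 entries whose symbols had turned into numbers were left out, at most 0.471% of any column. Column totals were 15.9 to 77.7 M normalized counts. Between 1.91% and 54.3% of low values per library were whole multiples of 1 step within 0.01, so reads could not be recovered, depth is unknown and no count model was used. The acute groups appear to have been scaled separately as deposited.

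Every library was multiplied by a factor that set its median ratio to a reference over 11349 genes to the same value. The 21124 genes that reached 10 in 3 or more libraries entered the test as log2(value + 1) with limma 3.58.1 in R 4.3.3, with trend and robust settings, all 14 groups in 1 fit and Benjamini-Hochberg adjustment over all genes tested. Ratios between genes were tested by exact permutation. The procedure was tested on simulated data. Nuclear copies were found with BLAST 2.17.0 among GENCODE transcripts, and no genome sequence was used here. Adding the copies was chosen after the data were seen, and that refit tested 21116 genes. The 7SL sum holds 3 entries and leaves out 7SK, and the haemoglobin sum holds 14. Named throughout were mt-Rnr1, mt-Rnr2, mt-Co1, mt-Nd5, mt-Nd6 and every other member that passed, and of each nuclear list the 2 genes with the smallest p past the threshold in each direction of a comparison. mt-Nd1, mt-Nd2, mt-Nd3, mt-Co2, mt-Atp8, mt-Cytb and mt-Tm are named outside this rule, after their values were seen. The members and lists were chosen with earlier results of these data known. Alternatives were other scalings, filters and pseudocounts, library weights, a liver term, left-out libraries and only the groups compared. Liver signal over 0.5% was the limit for leaving libraries out.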

Additional observations from a re-analysis of the deposited data

Results flagged for a closer look

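In groups of 4 to 10 samples, a sample was singled out when its gap to the nearest other sample was large against the whole range of its group. This happened in 15 of 130 groups of values, where chance gives about 1 in 20. On the log2(value + 1) scale, VarDR sham day 5 replicate 1 had mt-Rnr1 at 14.64 against 15.08 to 15.26 in the others. In the same group replicate 3 had mt-Co1 at 17.01 against 15.58 to 15.96, and its protein share was 0.865% against 0.186 to 0.296%, beside a liver signal of 4.05%. Acute sham day 2 replicate 1 stood apart in 4 genes: mt-Rnr1 at 15.76 (others 14.23 to 14.79), mt-Rnr2 at 19.72 (18.41 to 18.79), mt-Co1 at 16.88 (15.19 to 15.71) and mt-Nd5 at 11.22 (9.57 to 9.73), beside a liver signal of 1.26%. VarDR sham day 3 replicate 1 had mt-Nd5 at 11.06 against 9.15 to 9.86, beside 2.56% liver signal.

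mt-Nd6 was at 0 in VarDR 9.7 Gy day 30 replicate 2, against 3.97 to 5.21, and in Acute sham day 3 replicate 6, against 4.37 to 6.16. The protein share was 0.590% in VarDR 4.1 Gy day 5 replicate 4 (others 0.349 to 0.404%, liver signal 3.31%) and 0.315% in VarDR sham day 30 replicate 5 (0.176 to 0.227%, liver signal 0.193%). Acute 4.1 Gy day 5 replicate 5 had an rRNA share of 21.2% (1.57 to 6.23%) and a log2 ratio of mt-Co1 to mt-Rnr2 of -6.13 (-4.00 to -2.99), beside 1.49% liver signal. Acute 2 Gy day 2 replicate 5 had a log2 ratio of mt-Rnr2 to mt-Rnr1 of 2.11 (3.50 to 3.69), beside 0.0302% liver signal. The part of liver signal in these values was not tested.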

How the results depend on the processing

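No paired analysis was possible because the labels carry no replicate numbers shared between groups. The count of called members (0, 1, 0 and 2 on VarDR days 2, 3, 5 and 30, and 2, 3 and 3 on acute days 2, 3 and 5) moved most with the scaling. Under values as deposited it was 8, 7 and 11 on acute days 2, 3 and 5, where 29.4%, 57.5% and 49.2% of all genes were called, and the response differences had 2, 10 and 8 calls on days 2, 3 and 5, with 11.3%, 42.4% and 35.6% of all genes. Under equal totals it was 2 and 9 on VarDR days 3 and 30 and 10, 10 and 9 on the acute days, where 33.2%, 56.9%, 39.2%, 64.6% and 29.8% of all genes were called, with 1 call in each of the response differences of days 2 and 3. Equal totals without 7SL, haemoglobin and mitochondrial genes gave 4 on VarDR day 30, 6 on acute day 2 and 5 on acute day 3, with 47.2%, 18.2% and 28.5% of all genes called. Quantile normalization gave 0 on VarDR days 3 and 30 and 4 on acute day 2, with 9.78%, 20.8% and 15.9% of all genes called. Adding nuclear copies gave 2, 5 and 4 on VarDR days 3 and 30 and acute day 2, with 10.3%, 25.1% and 14.8% of all genes called. Without libraries over 0.5% liver signal it was 2, 1, 4 and 1 on VarDR days 3, 5 and 30 and acute day 5, with 8.74%, 8.69%, 28.0% and 16.8% of all genes called. Under that setting mt-Nd6 lost its calls of acute days 2 and 5, and acute day 3 kept only 1 irradiated library. The liver covariate gave 6 on acute day 3, with 16.1% of all genes called. Library weights gave 1 on VarDR day 2, 6 on acute days 2 and 5, and 1 in the day 3 response difference, with 9.73%, 28.1%, 30.8% and 12.5% of all genes called. No filter, where all 37 members entered, gave 1 and 6 on acute days 2 and 3, with 8.05% and 15.1% of all genes called. A pseudocount of 0.1 gave 1 on acute day 2, with 14.2% of all genes called. Only the groups compared gave 4 on VarDR day 30, with 28.1% of all genes called.

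Leaving out 1 library gave 0 to 1 on VarDR day 2 (1 without sham replicate 5), 0 to 2 on VarDR day 3, 0 to 1 on VarDR day 5 (1 without sham replicate 3), 0 to 4 on acute day 2 and 0 to 1 in the day 3 response difference. Irradiated minus sham differences in the log2 ratio of mt-Rnr2 to mt-Rnr1 ran from -0.49 to -0.32 on VarDR day 3, -0.28 to -0.16 on VarDR day 5 and 0.30 to 0.40 on VarDR day 30. They ran from -0.60 to -0.48 on acute day 3 and -0.97 to -0.59 on acute day 5. The acute day 3 difference in the log2 ratio of mt-Nd6 to mt-Nd5 ran from 2.70 to 3.24, where all 8 tests missed the threshold with fewer samples. The log2 fold of the rRNA share on acute day 5 ran from 0.83, without replicate 5, to 1.58.

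Without libraries over 0.5% liver signal, ratio calls were lost with fewer samples, here given as irradiated minus sham differences in log2 ratio. These were -0.93 and -0.62 for mt-Rnr2 to mt-Rnr1 on acute days 2 and 5, and -1.43 for mt-Co1 to mt-Rnr2 on acute day 2. For mt-Nd6 to mt-Nd5 they were 1.61, 2.56 and 1.85 on VarDR day 3 and acute days 2 and 5. The log2 fold of the protein share was 0.17 and 0.27 on acute days 3 and 5 without 7SL, 0.015, -0.10, -0.0028 and 0.17 on VarDR day 30 and acute days 2, 3 and 5 without 7SL and haemoglobin, and 0.34 on acute day 5 without liver libraries. That of the rRNA share was 0.00095 and 0.69 on acute days 3 and 5 without 7SL, 0.29, -0.17 and 0.59 on VarDR day 30 and acute days 3 and 5 without 7SL and haemoglobin, and 0.28 on acute day 5 without liver libraries.

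The single values listed here turned sign under other scalings, and the list may not hold every change of sign. Under equal totals these were mt-Co1 on VarDR day 3 (0.11), mt-Rnr2 and mt-Co1 on VarDR day 30 (-0.19 and -0.27), and mt-Rnr1 and mt-Co1 on acute day 3 (1.10 and 0.66). With copies they were mt-Co1 and mt-Co3 on VarDR day 3 (0.012 and 0.21), mt-Atp6, mt-Co1, mt-Co2 and mt-Co3 on VarDR day 30 (-0.45, -0.18, -0.46 and -0.55), mt-Co1 and mt-Co3 on acute day 2 (0.16 and 0.20) and mt-Co3 on acute day 3 (0.45, and 0.24 as deposited). Equal totals without 7SL, haemoglobin and mitochondrial genes turned mt-Co3 with its copy on VarDR day 30 (-0.055). Quantile normalization turned mt-Co1 on VarDR day 3 (0.17), mt-Rnr2 and mt-Co1 on VarDR day 30 (-0.13 and -0.14) and mt-Rnr2 on acute day 3 (1.08). With copies it turned mt-Co1 and mt-Co3 on VarDR day 3 (0.17 and 0.0095), mt-Co2 and mt-Co3 on VarDR day 30 (-0.081 and -0.31) and mt-Co1 and mt-Co3 on acute day 2 (0.49 and 0.073). The causes of these changes were not tested. Of 577 single-gene values under other settings 469 kept direction and side of the threshold, and of 559 that left out 1 library 515 did. Depth in reads is unknown, which limits what a value of 0 can show.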
